A study of Mus musculus with 44 samples.

Results

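Heterotrimeric G-protein signalling was followed through 58 genes in the hypothalamus and in the remaining brain of mice from a study of sodium craving. The genes encode G-protein alpha, beta and gamma subunits, regulators of G-protein signalling (RGS proteins), adenylyl cyclases, cyclic nucleotide phosphodiesterases, arrestins and receptor kinases. They were chosen by name alone, as the features whose gene symbol begins with GNA, GNB, GNG, RGS, ADCY, PDE, ARRB or GRK and continues with a subtype, leaving out Gnal and Rgs9. The rule took 64 of the 9554 features in the table, and all 64 matched a mouse gene symbol. G alpha subunits had 11 features from 10 genes, G beta subunits 4 features from 3 genes and G gamma subunits 7 features from 6 genes. RGS proteins had 17 features from 15 genes, phosphodiesterases 15 features from 15 genes, adenylyl cyclases 5 features from 5 genes, and arrestins and receptor kinases 5 features from 4 genes. The name rule also brought in Gnb1l, a WD-repeat protein that resembles G beta subunits, and Pde6d, a carrier of prenylated proteins. Gnas, Gnb1 and Adcy5 were not analysed here.

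All animals were adult male C57/Bl6 mice, and RNA came from whole tissue pieces of the hypothalamus or of the brain without hypothalamus (here "brain"). In the hypothalamus, 6 arrays were labelled ACTH gratified, 5 ACTH, 4 furosemide gratified, 4 furosemide and 4 control with no treatment. In the brain, 5 arrays were labelled ACTH gratified, 4 ACTH, 4 furosemide gratified, 4 furosemide and 4 control. ACTH is the pituitary hormone that drives the adrenal cortex, furosemide is a loop diuretic and so causes sodium loss in urine, and the gratified groups received the same agent; the labels give no dose, time or definition of gratification. Every array set tissue RNA in Cy5 against a commercial universal mouse reference RNA in Cy3, and the values are the authors' log ratios of tissue over reference, read here as log2. A ratio over the reference compares the same gene between samples; it does not rank different genes by amount. In whole tissue, fewer cells of a type and less RNA per cell cannot be told apart.

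In this pathway an activated receptor makes a G alpha subunit exchange GDP for GTP and release the beta-gamma dimer. Gs and Gi subunits raise and lower the output of adenylyl cyclases, Gq subunits switch on phospholipase C, and RGS proteins speed GTP hydrolysis and so end the signal. Phosphodiesterases degrade the cyclic nucleotides, while receptor kinases and arrestins silence the receptor. ACTH itself acts through a receptor coupled to Gs, and many hypothalamic neuropeptide receptors couple to Gq.

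The numbers that end the sample descriptions form 3 series. All 20 ACTH and ACTH gratified arrays carry high numbers and no other array does, so these treatments and the high-number series cannot be told apart in any comparison with controls; the other arrays have 2-digit or zero-padded numbers. Some values are identical to that of another feature of the array and are here called tied; their share ran from 20.3 to 33.5% on the high-number arrays, against 2.75 to 16.1% on the other arrays. Among the 64 features, 28.7% of values were tied on high-number arrays, against 10.9% on the other arrays. Some arrays stood apart. The array labelled hypothalamus ACTH gratified replicate 4 correlated with its own group at a mean r of 0.77, the lowest of the 44 arrays, whose range was 0.77 to 0.975. On the array labelled hypothalamus ACTH gratified replicate 6, 9 measured hypothalamic markers (Agrp, Avp, Hcrt, Nkx2-1, Npy, Oxt, Pmch, Pomc and Trh) averaged 0.587, within the 0.543 to 0.967 of the brain arrays and below the 1.40 to 2.21 of the other 22 hypothalamus arrays. In brain, 7 genes of cortex and hippocampus averaged 0.595 on ACTH gratified replicate 3 and 0.72 on furosemide gratified replicate 4, against 1.14 to 1.71 on the other 19 brain arrays. Furosemide replicate 1, at 1.14, lay below the 1.57 to 1.71 of the rest of its group. The mean of 5 cerebellar genes reached 1.93 in brain ACTH gratified, 2.09 in furosemide and 2.30 in furosemide gratified. The medians of these groups were 0.89, 0.95 and 0.92. In brain ACTH and control the highest means were 0.83 and 0.95.

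Across all 44 arrays, 19 of the 64 features lay above the reference on every array, 8 lay below it on every array and 37 took both signs. The highest medians over the reference were 2.34 for Rgs4, 2.14 for Gng13, 1.90 for Pde2a, 1.87 for Pde1b and 1.81 for Rgs7. Rgs4 and Rgs7 are neuronal RGS proteins, and Pde1b is a calcium-calmodulin-dependent phosphodiesterase. The lowest medians were -1.25 for Gng12, -1.18 for Gnai3 and -1.09 for Gna13. Rgs16 varied most over the arrays (SD 0.487) and Grk5 least (SD 0.0789).

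Between groups, differences in the 64 features were found for ACTH and ACTH gratified against control in both tissues and for hypothalamus against brain. A feature is said to rise or fall where its limma p, adjusted by Benjamini-Hochberg over all 9554 features, was under 0.05. In hypothalamus, 2 features rose and 7 fell with ACTH gratified, or 14.1% of the 64, against 12.6% of all features; with ACTH 1 rose and 6 fell, or 10.9%, against 10.5%. In brain, 7 rose and 13 fell with ACTH gratified, or 31.2%, against 32.7%; with ACTH 4 rose and 12 fell, or 25.0%, against 30%. In each of these comparisons the share of the 64 features was close to that of the whole table. Of all features, 4.67% rose and 7.97% fell in hypothalamus with ACTH gratified, and 4.49% rose and 6.03% fell with ACTH. In brain 11.5% rose and 21.2% fell with ACTH gratified, and 9.29% rose and 20.7% fell with ACTH. The split of the members' calls moved with the scaling. Centring each array on its median gave 1 rise and 11 falls in hypothalamus with ACTH gratified, 0 rises and 6 falls there with ACTH, and 7 rises and 8 falls in brain with ACTH gratified; after quantile normalization 2 rose and 5 fell in hypothalamus with ACTH, and 5 rose and 7 fell in brain with ACTH. The median difference of the 64 features was -0.10 in hypothalamus with ACTH gratified and -0.05 with ACTH, beside -0.01 and -0.02 for all features. In brain it was -0.10 with ACTH gratified and -0.10 with ACTH, beside -0.04 and -0.04 for all features.

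**Figure D1:**
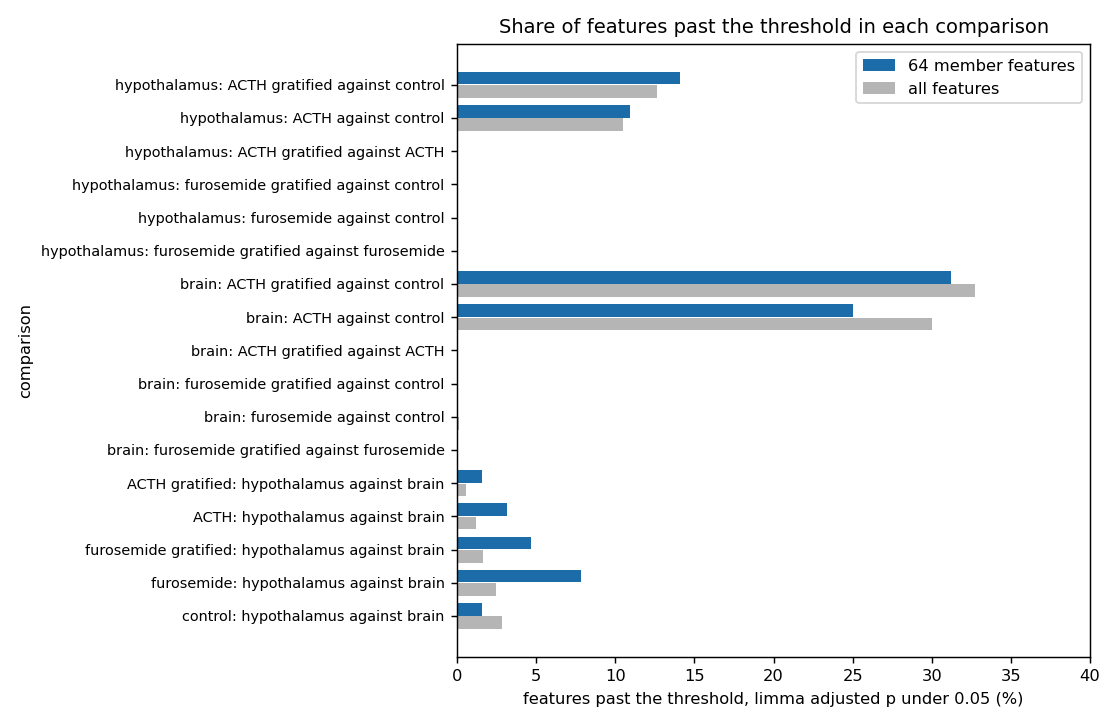
Share of features past the threshold (limma adjusted p under 0.05, x axis in percent) in each comparison (y axis), for the 64 features of the G-protein set (blue) and all 9554 features (grey). The blue bars reach 14.1% and 10.9% in hypothalamus and 31.2% and 25.0% in brain for ACTH gratified and ACTH against control, near the grey bars of 12.6%, 10.5%, 32.7% and 30%; the gratification and furosemide comparisons within a tissue have no blue bar, and those of hypothalamus against brain reach at most 7.81%.

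The results below turn on Rgs16, which was higher in hypothalamus than in brain, and on Gna11, Gnaq, Rgs10 and Pde4b, which fell with ACTH. Their promoter sequences are printed so that the genes that fell together can be set beside each other and beside Rgs16. Each window runs from 250 bases before to 50 bases after a transcript start and was taken from RefSeq on GRCm38.p6. The Pde4b and Rgs10 windows lie at transcript starts inside the gene. Pde4b spans 102087332 to 102607275 on its chromosome, and Rgs10 spans 128373621 to 128419506. Capitals mark matches, on either strand, to the CCAAT box (CCAAT) or to the 5-letter core of the cAMP response element (TGACG). The full element TGACGTCA, which contains the core, was also searched, as were the TATA box (TATAAA) and, separately, the E-box (CACGTG); these 5 windows hold none of them.
Rgs16 promoter, chr1:153740103-153740402, plus strand: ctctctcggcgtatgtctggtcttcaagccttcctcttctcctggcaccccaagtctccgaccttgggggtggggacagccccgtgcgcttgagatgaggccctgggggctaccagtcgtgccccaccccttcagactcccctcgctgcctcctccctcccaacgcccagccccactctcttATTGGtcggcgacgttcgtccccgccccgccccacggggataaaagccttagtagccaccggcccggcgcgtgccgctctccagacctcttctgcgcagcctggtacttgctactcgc
Gna11 promoter, chr10:81545113-81545412, minus strand: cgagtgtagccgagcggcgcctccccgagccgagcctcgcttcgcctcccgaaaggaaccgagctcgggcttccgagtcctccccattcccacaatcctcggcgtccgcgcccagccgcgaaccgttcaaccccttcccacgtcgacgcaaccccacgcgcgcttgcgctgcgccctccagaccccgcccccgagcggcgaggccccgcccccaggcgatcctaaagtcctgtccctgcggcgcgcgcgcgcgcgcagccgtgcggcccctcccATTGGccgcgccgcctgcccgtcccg
Gnaq promoter, chr19:16132434-16132733, plus strand: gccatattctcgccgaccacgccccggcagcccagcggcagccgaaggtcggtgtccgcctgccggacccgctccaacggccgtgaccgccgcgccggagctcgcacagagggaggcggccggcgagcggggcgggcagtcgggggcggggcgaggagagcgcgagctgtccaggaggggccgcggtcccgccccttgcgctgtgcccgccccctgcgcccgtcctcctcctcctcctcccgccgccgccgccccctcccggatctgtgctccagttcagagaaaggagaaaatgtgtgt
Rgs10 promoter, chr7:128418123-128418422, minus strand: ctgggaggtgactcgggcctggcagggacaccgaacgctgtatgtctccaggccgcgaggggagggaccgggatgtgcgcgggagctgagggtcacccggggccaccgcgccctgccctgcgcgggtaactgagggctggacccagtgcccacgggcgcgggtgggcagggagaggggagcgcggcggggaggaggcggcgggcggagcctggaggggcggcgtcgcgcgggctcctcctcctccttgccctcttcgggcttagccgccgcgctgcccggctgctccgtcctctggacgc
Pde4b promoter, chr4:102421305-102421604, plus strand: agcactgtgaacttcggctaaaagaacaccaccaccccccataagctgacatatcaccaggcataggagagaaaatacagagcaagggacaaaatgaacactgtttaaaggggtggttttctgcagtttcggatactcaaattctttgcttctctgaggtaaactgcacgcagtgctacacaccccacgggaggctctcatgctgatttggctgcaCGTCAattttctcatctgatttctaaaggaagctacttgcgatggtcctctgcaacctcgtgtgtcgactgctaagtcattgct
The Rgs16 and Gna11 windows hold 1 CCAAT box each. The printed Pde4b window, 1 of 4 for that gene, holds 1 TGACG, and the Gnaq and Rgs10 windows hold none of the motifs. RefSeq gave 65 windows for 40 of the 58 genes. TGACG was in 23.1% of them, against 20.8% of all 32851 mouse windows of the same length, and CCAAT in 29.2%, against 37.4%. TATAAA was in 7.69%, against 13.6%, CACGTG in 7.69%, against 7.15%, and TGACGTCA in 0 of the 65, against 1.79% of all windows.

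Rgs16 was higher in hypothalamus than in brain in all 5 conditions. Rgs16 speeds GTP hydrolysis by Gi and Gq subunits and is known in the hypothalamus from the suprachiasmatic clock. With ACTH gratified it had log2 ratios of 0.53 to 1.05 (median 0.92) in hypothalamus, against -0.11, 0.01, 0.23, -0.08 and -0.03 in brain. With ACTH it had 0.97, 0.49, 0.48, 0.85 and 0.67 in hypothalamus, against -0.05, 0.06, 0.23 and -0.12 in brain. With furosemide gratified it had 1.13, 1.19, 1.32 and 0.79 in hypothalamus, against 0.11, 0.20, 0.42 and -0.29 in brain. The lowest hypothalamus value lay above the highest brain value in each of these conditions. With furosemide it had 1.21, 1.14, 0.81 and 0.82 in hypothalamus, against 0.29, 0.36, -0.04 and 0.55 in brain. In controls it had 1.18, 1.36, 1.34 and 0.88 in hypothalamus, against 0.53, 0.04, 0.02 and -0.03 in brain. The tissues did not overlap here either, although brain control replicate 1 stood above the other 3 brain controls. The difference, hypothalamus minus brain, was 0.85 ± 0.13 (SE) with ACTH gratified (adjusted p = 8.88e-05), 0.66 ± 0.14 with ACTH (adjusted p = 0.00833) and 0.99 ± 0.15 with furosemide gratified (adjusted p = 5.25e-05). It was 0.71 ± 0.15 with furosemide (adjusted p = 0.00434) and 1.05 ± 0.15 in controls (adjusted p = 1.85e-05), the last being 2.07-fold.

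By size of the tissue difference Rgs16 ranked 6 of 9554 features with ACTH gratified, 27 with ACTH, 9 with furosemide gratified, 33 with furosemide and 9 in controls. Of all features 17, 0.178%, were past the threshold and higher in hypothalamus in all 5 conditions, and Rgs16 was the only G-protein feature among them. In the ACTH and ACTH gratified conditions both tissues belong to the high-number series, so the number series does not separate the tissues there. In controls and with furosemide, hypothalamus arrays have 2-digit and brain arrays zero-padded numbers. The call was lost when the number series entered the fit (0.77, adjusted p = 0.163) for furosemide, and within the 2-digit series (0.94, adjusted p = 0.509) and within the zero-padded series (1.05, adjusted p = 0.245) for furosemide gratified. Without ACTH gratified replicate 4 the ACTH gratified difference was 0.81, without replicate 6 it was 0.91 and without both 0.88.

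**Figure D2:**
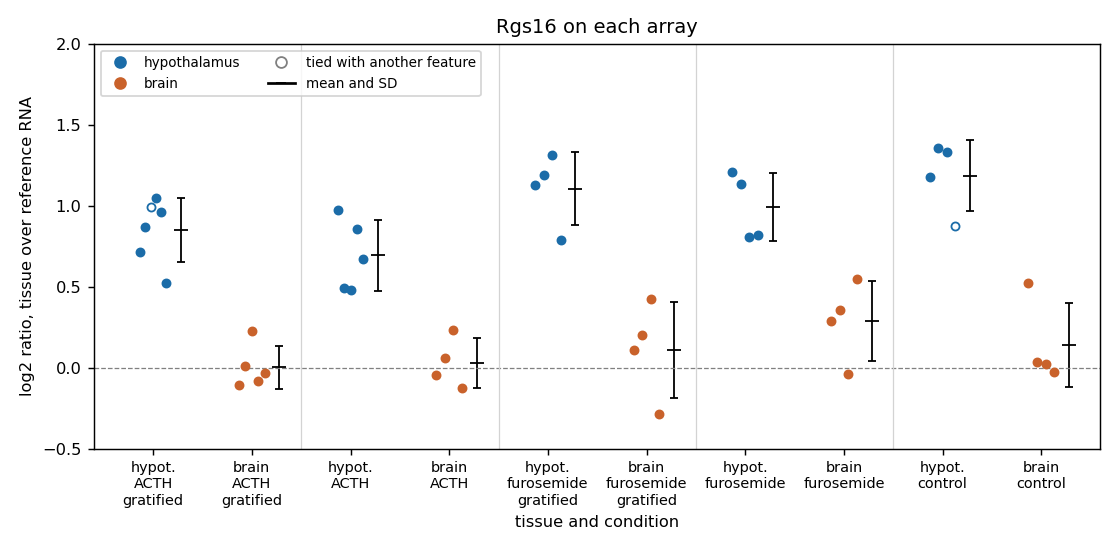
Rgs16 log2 ratio of tissue over reference RNA (y axis) on each of 44 arrays by tissue and condition (x axis), hypothalamus in blue and brain in orange, with the mean and SD beside each group and open points for tied values. In every condition the hypothalamus points lie above the brain points, from a difference of 0.66 with ACTH to 1.05 in controls.

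Few other members differed between the tissues in the unweighted fit of all arrays as deposited. Past the threshold were 1 of the 64 features with ACTH gratified (1.56%), 2 with ACTH, 3 with furosemide gratified, 5 with furosemide and 1 in controls. The shares of all features past it were 0.555%, 1.22%, 1.63%, 2.47% and 2.82% in the same order. The tissues did not overlap for 1, 8, 6, 16 and 5 of the 64 features. Over all features such shares were 0.785%, 6.27%, 6.45%, 20.4% and 9.91%. With furosemide, where members lay on both sides, 1.18% of all features were higher and 1.29% lower in hypothalamus; with furosemide gratified the shares were 0.984% and 0.649%. Rgs10, an RGS protein that is abundant in microglia, had 0.12, 0.03, 0.07 and 0.04 in hypothalamus with furosemide, against -0.33, -0.43, -0.38 and -0.42 in brain. It had -0.40, -0.33, -0.41, -0.46 and -0.52 in hypothalamus with ACTH, against -0.69, -0.81, -0.84 and -0.95 in brain. The tissues did not overlap in either condition. The Rgs10 difference was 0.46 ± 0.11 with furosemide (adjusted p = 0.013) and 0.40 ± 0.10 with ACTH (adjusted p = 0.0378). The ACTH call was lost without brain ACTH replicates 2, 3 or 4 or hypothalamus ACTH replicates 1, 2, 3 or 4 (adjusted p 0.0625 to 0.154), and the furosemide call when the number series entered the fit (0.48, adjusted p = 0.262). With hypothalamus ACTH gratified replicate 4 out of the shared fit, Rgs10 passed the threshold in 3 conditions: its adjusted p was 0.0123 with ACTH and 0.00365 with furosemide, and with furosemide gratified the difference was 0.37 (adjusted p = 0.0255). With furosemide gratified it also passed without brain furosemide gratified replicate 4 (adjusted p = 0.0474) and with array quality weights (0.35, adjusted p = 0.00995). With ACTH gratified the Rgs10 difference passed without brain ACTH gratified replicate 3 or hypothalamus ACTH gratified replicate 6 (adjusted p 0.0253 to 0.0323), and the Gnaq difference without hypothalamus ACTH gratified replicate 6 (adjusted p = 0.0439). Gnai2, described with the G alpha subunits, passed in the furosemide condition with array quality weights (0.39, adjusted p = 2.99e-05), in a fit of only the groups compared (0.40, adjusted p = 0.00406) and with hypothalamus ACTH gratified replicate 4 out of the shared fit (0.40, adjusted p = 0.00226). In the furosemide gratified condition it passed with array quality weights (0.31, adjusted p = 0.0285) and with hypothalamus ACTH gratified replicate 4 out of the shared fit (0.34, adjusted p = 0.0133). In controls, Gna11 and Gngt1 passed with replicate 4 out of the shared fit (-0.29, adjusted p = 0.0447, and 0.27, adjusted p = 0.0269). The mean log2 ratio of 6 microglial markers (listed below) was 0.90 to 0.96 in hypothalamus with furosemide, against 0.68 to 0.83 in brain. With ACTH it was 0.34 to 0.65 in hypothalamus, against 0.09 to 0.41 in brain. In controls it was 0.66 to 0.99, against 0.64 to 1.10, and with ACTH gratified 0.20 to 0.36, against 0.17 to 0.39. With furosemide gratified it was 0.67 to 0.87, against 0.47 to 0.87. In each of the 5 tissue comparisons 0 of the 6 markers passed the threshold, while the Rgs10 difference was 0.24 to 0.46. The part of microglia in the Rgs10 difference was not tested.

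With furosemide, Rgs2, an RGS protein selective for Gq, had 0.84, 0.82, 0.96 and 0.73 in hypothalamus, against -0.11, 0.38, 0.35 and 0.41 in brain. Arrb1, beta-arrestin 1, had 0.07, 0.17, 0.04 and 0.30 in hypothalamus, against 0.59, 0.41, 0.83 and 0.58 in brain. Rgs6, an R7-family RGS protein, had 0.46, 0.52, 0.27 and 0.49 in hypothalamus, against 0.71, 0.76, 0.64 and 0.71 in brain. Rgs6 values were tied on 2 of 4 arrays in each tissue. None of these groups overlapped: Rgs2 lay higher in hypothalamus, and Arrb1 and Rgs6 lay lower. With furosemide, 20.4% of all features lacked overlap between the tissues too. The differences were 0.58 ± 0.14 for Rgs2 (adjusted p = 0.014), -0.46 ± 0.12 for Arrb1 (adjusted p = 0.0273) and -0.27 ± 0.08 for Rgs6 (adjusted p = 0.0444). The Rgs2 call was lost without brain furosemide replicate 1 or hypothalamus furosemide replicate 3 (adjusted p 0.0665 to 0.0887), after quantile normalization (0.46, adjusted p = 0.098) and when the number series entered the fit (0.57, adjusted p = 0.35). The Arrb1 call was lost without brain furosemide replicates 1, 3 or 4 or hypothalamus furosemide replicates 1, 2 or 3 (adjusted p 0.0506 to 0.122), after quantile normalization (-0.41, adjusted p = 0.0728) and when the number series entered the fit (-0.44, adjusted p = 0.448), and the Rgs6 call without brain furosemide replicates 1, 2, 3 or 4 or hypothalamus furosemide replicates 1, 2, 3 or 4 (adjusted p 0.0515 to 0.223), with array medians set to 0 (-0.29, adjusted p = 0.0877), after quantile normalization (-0.21, adjusted p = 0.13) and when the number series entered the fit (-0.30, adjusted p = 0.389).

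With furosemide gratified, Rgs17, an RGS protein of the RZ family, had 1.83, 1.63, 1.60 and 1.67 in hypothalamus, against 1.52, 0.74, 1.33 and 1.07 in brain. Gna15, a Gq-class subunit of blood cells, had -0.49, 0.02, -1.03 and -1.02 in hypothalamus, against -0.03, 0.09, 0.13 and -0.08 in brain. The Rgs17 groups did not overlap, while 1 of the 4 Gna15 hypothalamus arrays lay among the brain values. The differences were 0.52 ± 0.13 for Rgs17 (adjusted p = 0.0282) and -0.66 ± 0.14 for Gna15 (adjusted p = 0.00479). The Rgs17 call was lost without brain furosemide gratified replicates 2 or 4 or hypothalamus furosemide gratified replicates 1 or 4 (adjusted p 0.0514 to 0.26), with array quality weights (0.31, adjusted p = 0.145), in a fit of only the groups compared (0.52, adjusted p = 0.329), when the number series entered the fit (0.46, adjusted p = 0.0696), within the 2-digit series (0.59, adjusted p = 0.759) and within the zero-padded series (0.21, adjusted p = 0.964). The Gna15 call was lost without hypothalamus furosemide gratified replicate 4 (adjusted p = 0.0543), with array quality weights (-0.45, adjusted p = 0.0862), in a fit of only the groups compared (-0.66, adjusted p = 0.359) and within the zero-padded series (-0.20, adjusted p = 0.969). In sign alone, 10 of the 64 features (15.6%) lay higher in hypothalamus in all 5 conditions and 7 (10.9%) lower, beside 10.9% and 9.21% of all features.

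Among the G alpha subunits, Gna11 fell in all 4 comparisons of ACTH gratified or ACTH with control, and Gnaq fell in 3 of them. Both belong to the Gq class, which activates phospholipase C beta. Of 11 G alpha features, 1 rose and 3 fell in hypothalamus with ACTH gratified, 1 rose and 2 fell there with ACTH, 2 rose and 3 fell in brain with ACTH gratified, and 1 rose and 5 fell in brain with ACTH. In hypothalamus Gnaq had log2 ratios of -1.48 to -0.44 (median -0.98) on the ACTH gratified arrays and -0.89, -1.08, -1.25, -0.44 and -1.05 on the ACTH arrays, against -0.30, -0.43, -0.43 and -0.23 on the control arrays. In brain it had -0.42, -0.29, -0.84, -0.67 and -0.83 on the ACTH gratified arrays and -1.0, -0.83, -1.05 and -1.06 on the ACTH arrays, against -0.15, -0.58, -0.04 and -0.72 on the control arrays. The hypothalamus treated and control groups did not overlap, nor did the brain ACTH and control groups, while brain ACTH gratified arrays overlapped the controls. The hypothalamus difference from control was -0.64 ± 0.15 with ACTH gratified (adjusted p = 0.00708) and -0.59 ± 0.16 with ACTH (adjusted p = 0.0191). For brain it was -0.24 ± 0.14 with ACTH gratified (adjusted p = 0.184) and -0.61 ± 0.14 with ACTH (adjusted p = 0.00409), and its 95% interval with ACTH gratified was -0.52 to 0.05. The hypothalamus ACTH call was lost without hypothalamus control replicate 1 (adjusted p = 0.0542).

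Gna11 had -0.78 to -0.49 (median -0.59) on the ACTH gratified arrays and -0.52, -0.48, -0.52, -0.40 and -0.54 on the ACTH arrays, against -0.06, -0.31, -0.29 and -0.15 on the control arrays in hypothalamus. Its brain values were -0.70, -0.57, -0.68, -0.45 and -0.44 on the ACTH gratified arrays and -0.58, -0.55, -0.49 and -0.43 on the ACTH arrays, against -0.08, 0.39, -0.12 and 0.15 on the control arrays. The treated and control groups did not overlap in any of the 4 comparisons. Of all features, 9.59% to 28.7% lacked overlap in these comparisons too. The hypothalamus difference was -0.41 ± 0.07 with ACTH gratified (adjusted p = 0.000731) and -0.29 ± 0.07 with ACTH (adjusted p = 0.0161). The brain difference was -0.65 ± 0.10 with ACTH gratified (adjusted p = 0.0001) and -0.60 ± 0.10 with ACTH (adjusted p = 0.000411), the larger of them 1.57-fold lower. The hypothalamus ACTH call was lost without hypothalamus control replicate 1 (adjusted p = 0.0752).

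Gnao1 encodes the G alpha o subunit, an abundant G alpha of neurons. In hypothalamus it had 0.24 to 0.99 (median 0.86) on the ACTH gratified arrays and 1.01, 0.76, 0.30, 0.98 and 1.10 on the ACTH arrays, against 1.18, 1.16, 1.32 and 1.32 on the control arrays. Across brain arrays it had 1.09, 0.97, 0.66, 1.11 and 1.14 on the ACTH gratified arrays and 0.64, 0.92, 0.75 and 0.80 on the ACTH arrays, against 1.27, 1.15, 1.53 and 0.97 on the control arrays. In both treated hypothalamus groups every treated array lay below every control; of the brain groups only ACTH did so. Set against control, hypothalamus differed by -0.54 ± 0.15 with ACTH gratified (adjusted p = 0.0202) and -0.41 ± 0.15 with ACTH (adjusted p = 0.0877). In brain it was -0.23 ± 0.12 with ACTH gratified (adjusted p = 0.143) and -0.45 ± 0.13 with ACTH (adjusted p = 0.0125). The hypothalamus ACTH gratified call was lost without hypothalamus control replicate 3 (adjusted p = 0.0615), after quantile normalization (-0.36, adjusted p = 0.181) and in a fit of only the groups compared (-0.54, adjusted p = 0.0739). The brain ACTH call was lost without brain control replicate 3 (adjusted p = 0.0595) and after quantile normalization (-0.17, adjusted p = 0.358). The hypothalamus ACTH difference of -0.41 passed the threshold with array quality weights (-0.34, adjusted p = 0.0335), with hypothalamus ACTH gratified replicate 4 out of the shared fit (-0.41, adjusted p = 0.0425) and with hypothalamus ACTH gratified replicates 4 and 6 both left out (-0.41, adjusted p = 0.0481).

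Gnai2 encodes a Gi subunit that inhibits adenylyl cyclase. For brain the values were -0.99, -0.99, -0.67, -0.93 and -0.81 on the ACTH gratified arrays and -0.80, -0.92, -0.99 and -0.92 on the ACTH arrays, against -0.45, -0.49, -0.27 and -0.32 on the control arrays. Its hypothalamus values were -0.82 to 0.84 (median -0.73) on the ACTH gratified arrays and -0.70, -0.67, -0.62, -0.71 and -0.72 on the ACTH arrays, against -0.12, -0.18, -0.13 and -0.38 on the control arrays. The brain groups did not overlap with controls, and neither did hypothalamus ACTH. In hypothalamus ACTH gratified, replicate 4 had 0.84 while the other 5 arrays lay between -0.82 and -0.52, all below the controls. Set against control, brain differed by -0.50 ± 0.08 with ACTH gratified (adjusted p = 0.000267) and -0.53 ± 0.09 with ACTH (adjusted p = 0.000406). In hypothalamus it was -0.26 ± 0.21 with ACTH gratified (adjusted p = 0.435) and -0.48 ± 0.21 with ACTH (adjusted p = 0.149). Without replicate 4 the hypothalamus ACTH gratified difference was -0.53 (adjusted p = 3.72e-05), and the hypothalamus ACTH difference of -0.48 had an adjusted p of 0.00015 once that array left the shared fit.

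Gnai3, another inhibitory subunit, fell in brain by a smaller amount. It had -1.11, -1.41, -1.39, -1.40 and -1.38 on the ACTH gratified arrays and -1.33, -1.49, -1.08 and -1.38 on the ACTH arrays, against -1.09, -1.17, -0.94 and -1.03 on the control arrays. Both treated brain groups overlapped the controls. The difference was -0.28 ± 0.09 with ACTH gratified (adjusted p = 0.0238) and -0.26 ± 0.10 with ACTH (adjusted p = 0.0451). Its ACTH gratified call was lost without brain control replicates 3 or 4 or brain ACTH gratified replicates 2 or 4 (adjusted p 0.0511 to 0.0871) and after quantile normalization (-0.22, adjusted p = 0.0698). Its ACTH call was lost without brain control replicates 1, 3 or 4 or brain ACTH replicates 1, 2 or 4 (adjusted p 0.0621 to 0.134), after quantile normalization (-0.19, adjusted p = 0.141) and in a fit of only the groups compared (-0.26, adjusted p = 0.0818).

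**Figure D3:**
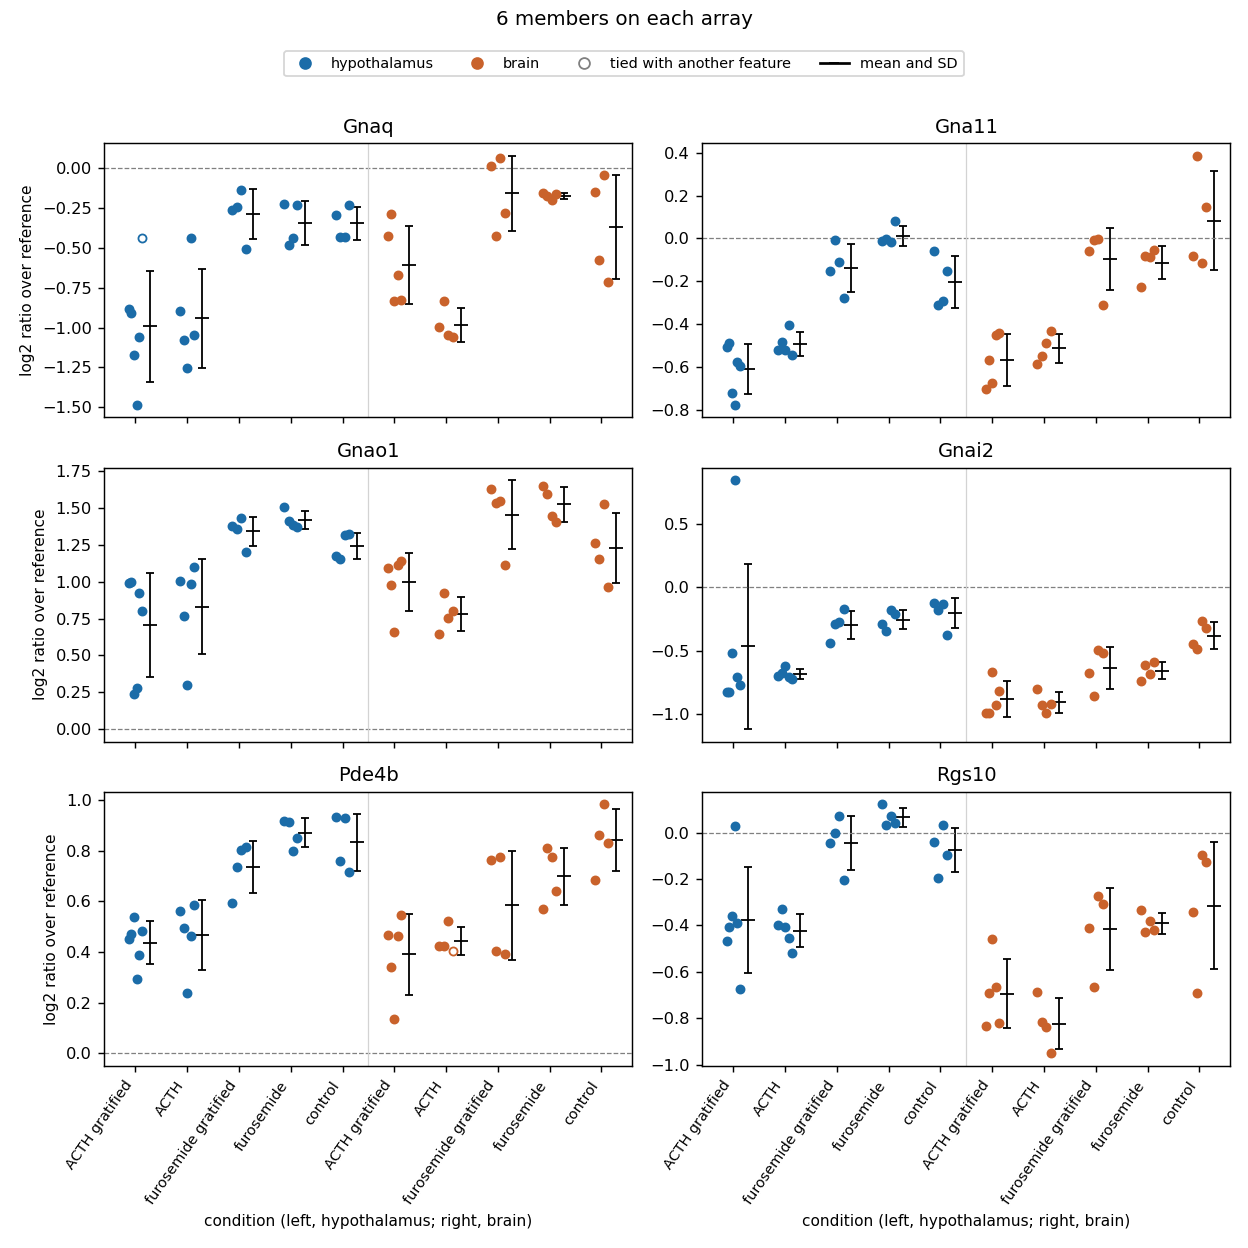
Log2 ratio over reference RNA (y axis) of Gnaq, Gna11, Gnao1, Gnai2, Pde4b and Rgs10 on each array by condition (x axis), hypothalamus in blue on the left and brain in orange on the right of each panel, with mean and SD beside each group and open points for tied values. The ACTH gratified and ACTH arrays lie low in most panels; in the Gnai2 panel, hypothalamus ACTH gratified replicate 4 stands at 0.84, above the other arrays of the panel.

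Of 4 G beta features none passed the threshold in hypothalamus in the unweighted fit of all arrays as deposited, and 1 fell in brain with ACTH gratified and 1 with ACTH. Of 7 G gamma features, 1 fell in hypothalamus with ACTH gratified, 3 rose and 1 fell in brain with ACTH gratified, and 2 rose in brain with ACTH. The rises belong to rod and cone subunits, described with phototransduction. Gnb4, a beta subunit, had -0.28, -0.24, -0.19, -0.01 and -0.02 on the ACTH gratified arrays and 0.04, -0.12, -0.12 and -0.24 on the ACTH arrays, against -0.04, -0.04, 0.31 and 0.43 on the control arrays in brain. The groups overlapped in both comparisons, and the difference was -0.31 ± 0.12 with ACTH gratified (adjusted p = 0.0469) and -0.28 ± 0.12 with ACTH (adjusted p = 0.0959). Gnb1l fell by 0.23 in brain with ACTH (adjusted p = 0.0192). The Gnb4 call was lost without brain control replicates 3 or 4 or brain ACTH gratified replicates 1, 2 or 3 (adjusted p 0.0759 to 0.178), with array medians set to 0 (-0.29, adjusted p = 0.0669) and in a fit of only the groups compared (-0.31, adjusted p = 0.0508), and the Gnb1l call without brain control replicates 3 or 4 or brain ACTH replicate 3 (adjusted p 0.0534 to 0.0593) and after quantile normalization (-0.15, adjusted p = 0.118). In hypothalamus the Gnb4 difference was -0.21 ± 0.08 with ACTH gratified (adjusted p = 0.0764) and -0.18 ± 0.08 with ACTH (adjusted p = 0.151). The ACTH gratified difference passed the threshold without hypothalamus ACTH gratified replicate 4 or hypothalamus control replicate 4 (adjusted p 0.0142 to 0.0176), with array medians set to 0 (-0.25, adjusted p = 0.0384), with array quality weights (-0.29, adjusted p = 0.00228), with hypothalamus ACTH gratified replicates 4 and 6 both left out (-0.22, adjusted p = 0.0364) and after quantile normalization (-0.25, adjusted p = 0.0451). The ACTH difference passed it without hypothalamus control replicate 4 (adjusted p = 0.0398) and with array quality weights (-0.22, adjusted p = 0.0118). The Gnb1l difference there was -0.17 ± 0.09 with ACTH gratified (adjusted p = 0.231) and -0.21 ± 0.10 with ACTH (adjusted p = 0.159). For ACTH gratified it passed without hypothalamus ACTH gratified replicate 4 (adjusted p = 0.00878), with array quality weights (-0.20, adjusted p = 0.0192) and with hypothalamus ACTH gratified replicates 4 and 6 both left out (-0.24, adjusted p = 0.0222). For ACTH it passed with array quality weights (-0.20, adjusted p = 0.0197), with hypothalamus ACTH gratified replicates 4 and 6 both left out (-0.21, adjusted p = 0.0333) and with hypothalamus ACTH gratified replicate 4 out of the shared fit (-0.21, adjusted p = 0.0307).

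Gng13 is a gamma subunit known from taste cells and retinal bipolar cells. In brain it had 1.72, 2.01, 2.46, 2.06 and 2.14 on the ACTH gratified arrays and 2.23, 1.99, 2.14 and 2.04 on the ACTH arrays, against 2.32, 2.53, 2.52 and 2.37 on the control arrays. Brain ACTH arrays lay below all controls, and ACTH gratified arrays overlapped them. The difference was -0.36 ± 0.12 with ACTH gratified (adjusted p = 0.0344) and -0.33 ± 0.13 with ACTH (adjusted p = 0.0598). Gng12 fell in hypothalamus with ACTH gratified by 0.26 (adjusted p = 0.0494). The Gng13 call was lost without brain control replicates 2, 3 or 4 or brain ACTH gratified replicates 1, 2 or 4 (adjusted p 0.0532 to 0.0988), with array medians set to 0 (-0.33, adjusted p = 0.0525) and after quantile normalization (-0.18, adjusted p = 0.214). The Gng12 call was lost without hypothalamus control replicates 1, 3 or 4 or hypothalamus ACTH gratified replicates 1, 2, 3, 5 or 6 (adjusted p 0.0594 to 0.167), after quantile normalization (-0.23, adjusted p = 0.0978) and in a fit of only the groups compared (-0.26, adjusted p = 0.0842). With the replicate number as a block the Gng12 call was lost too.

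Gng7, the gamma subunit that pairs with G alpha olf in striatum, did not pass the threshold in the unweighted fit of all arrays as deposited. In hypothalamus it had -0.08 to 1.05 (median 0.27) on the ACTH gratified arrays and 0.96, 0.97, 0.71, 0.90 and 1.07 on the ACTH arrays, against 1.35, 0.63, 0.59 and 1.14 on the control arrays. Its brain values were 0.78, 0.89, 0.26, 0.69 and 0.61 on the ACTH gratified arrays and 0.47, 0.65, 0.45 and 0.43 on the ACTH arrays, against 0.90, 0.20, 1.05 and 0.58 on the control arrays. All treated groups overlapped the controls. The hypothalamus difference with ACTH gratified was -0.51 ± 0.18 (adjusted p = 0.0666, 95% interval -0.88 to -0.13). It was -0.63 without ACTH gratified replicate 1 (adjusted p = 0.0157) and -0.60 without replicate 2 (adjusted p = 0.0283), past the threshold in both. With ACTH it was -0.01 ± 0.19 (95% interval -0.39 to 0.38), and in brain -0.03 ± 0.21 with ACTH gratified and -0.18 ± 0.22 with ACTH.

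Of the 17 RGS features, 1 rose and 2 fell in hypothalamus with ACTH gratified, 0 rose and 2 fell there with ACTH, 0 rose and 4 fell in brain with ACTH gratified, and 1 rose and 2 fell in brain with ACTH. Rgs10 fell in all 4 comparisons with control, and Rgs7 in 3. In hypothalamus Rgs10 had -0.67 to 0.03 (median -0.40) on the ACTH gratified arrays and -0.40, -0.33, -0.41, -0.46 and -0.52 on the ACTH arrays, against -0.04, -0.20, 0.03 and -0.10 on the control arrays. Across brain arrays it had -0.83, -0.69, -0.46, -0.67 and -0.82 on the ACTH gratified arrays and -0.69, -0.81, -0.84 and -0.95 on the ACTH arrays, against -0.34, -0.69, -0.10 and -0.13 on the control arrays. Hypothalamus ACTH arrays lay below all controls, the other 3 treated groups overlapped the controls, and replicate 4 was the highest hypothalamus ACTH gratified array. The hypothalamus difference was -0.30 ± 0.09 with ACTH gratified (adjusted p = 0.035) and -0.35 ± 0.10 with ACTH (adjusted p = 0.0236). The brain difference was -0.38 ± 0.11 with ACTH gratified (adjusted p = 0.0124) and -0.51 ± 0.12 with ACTH (adjusted p = 0.00319). The hypothalamus ACTH call was lost without hypothalamus control replicates 1 or 3 or hypothalamus ACTH replicate 5 (adjusted p 0.05001 to 0.0846), and the brain ACTH gratified call without brain control replicates 3 or 4 (adjusted p 0.053 to 0.0606). The hypothalamus ACTH gratified call was lost without hypothalamus control replicates 1, 3 or 4 or hypothalamus ACTH gratified replicates 1, 2, 5 or 6 (adjusted p 0.0526 to 0.111) and in a fit of only the groups compared (-0.30, adjusted p = 0.162). That call was also lost with the replicate number as a block.

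The microglial marker list moved with Rgs10. Of its 8 genes, 6 were measured (Cx3cr1, Trem2, Csf1r, C1qb, C1qc and Tyrobp). In hypothalamus 5 of the 6 fell with ACTH gratified and 3 of the 6 with ACTH. In brain 6 of 6 fell with ACTH gratified and 6 of 6 with ACTH. Of all features, 7.97% and 6.03% fell in hypothalamus with ACTH gratified and ACTH, and 21.2% and 20.7% in brain. The mean log2 ratio of the 6 ranged over 0.20 to 0.36 on hypothalamus ACTH gratified arrays and 0.34 to 0.65 on hypothalamus ACTH arrays, against 0.66 to 0.99 on hypothalamus controls. It ranged over 0.17 to 0.39 on brain ACTH gratified arrays and 0.09 to 0.41 on brain ACTH arrays, against 0.64 to 1.10 on brain controls. These groups of arrays did not overlap with their controls, and the part of microglia in the Rgs10 result was not tested.

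Rgs7 is an R7-family protein that works on Gi and Go subunits in neurons. Its hypothalamus values were 1.07 to 1.71 (median 1.55) on the ACTH gratified arrays and 1.63, 1.65, 1.24, 1.75 and 1.79 on the ACTH arrays, against 1.76, 1.85, 1.84 and 1.94 on the control arrays. For brain the values were 1.28, 1.63, 1.67, 1.83 and 1.69 on the ACTH gratified arrays and 1.72, 1.63, 1.84 and 1.35 on the ACTH arrays, against 2.05, 1.86, 1.92 and 2.00 on the control arrays. Hypothalamus ACTH gratified and both treated brain groups lay wholly below their controls, with replicate 4 the lowest hypothalamus ACTH gratified array. Set against control, hypothalamus differed by -0.35 ± 0.11 with ACTH gratified (adjusted p = 0.0331) and -0.24 ± 0.11 with ACTH (adjusted p = 0.168). In brain it was -0.34 ± 0.11 with ACTH gratified (adjusted p = 0.0214) and -0.33 ± 0.11 with ACTH (adjusted p = 0.0364). The hypothalamus ACTH gratified call was lost without hypothalamus control replicates 1, 2, 3 or 4 or hypothalamus ACTH gratified replicate 1 (adjusted p 0.0507 to 0.0787), after quantile normalization (-0.14, adjusted p = 0.415) and in a fit of only the groups compared (-0.35, adjusted p = 0.0942). The brain ACTH gratified call was lost without brain control replicates 1 or 4 or brain ACTH gratified replicate 1 (adjusted p 0.0552 to 0.0633) and after quantile normalization (-0.13, adjusted p = 0.341), and the brain ACTH call without brain control replicates 1, 3 or 4 or brain ACTH replicates 2 or 4 (adjusted p 0.0607 to 0.141), after quantile normalization (-0.05, adjusted p = 0.747) and in a fit of only the groups compared (-0.33, adjusted p = 0.0524).

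Rgs16 also differed by treatment within the hypothalamus, where its values by array are given above. The hypothalamus difference from control was -0.33 ± 0.13 with ACTH gratified (adjusted p = 0.0927) and -0.49 ± 0.14 with ACTH (adjusted p = 0.0226). Both treated groups overlapped the controls: control replicate 4 had 0.88, while the highest ACTH gratified array had 1.05 and the highest ACTH array 0.97. The ACTH call was lost without hypothalamus control replicates 1, 2 or 3 or hypothalamus ACTH replicates 2 or 3 (adjusted p 0.0554 to 0.0811) and after quantile normalization (-0.40, adjusted p = 0.0968). The ACTH gratified difference passed the threshold without hypothalamus control replicate 4 or hypothalamus ACTH gratified replicate 4 (adjusted p 0.0389 to 0.0449) and with array quality weights (-0.44, adjusted p = 0.0144). In brain the Rgs16 difference was -0.14 ± 0.14 with ACTH gratified (adjusted p = 0.468) and -0.11 ± 0.15 with ACTH (adjusted p = 0.597). The test of whether the ACTH difference itself differed between the tissues had an adjusted p of 0.7 for Rgs16.

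Rgs1, an RGS protein of immune cells, was the only RGS feature that rose in the unweighted fit of all arrays as deposited. In hypothalamus it had -0.37 to 0.08 (median -0.30) on the ACTH gratified arrays and -0.61, 0.05, -0.51, -0.55 and -0.47 on the ACTH arrays, against -0.62, -0.63, -0.52 and -0.83 on the control arrays. In brain it had -0.10, -0.44, -0.40, -0.50 and -0.40 on the ACTH gratified arrays and -0.36, 0.10, 0.34 and -0.30 on the ACTH arrays, against -0.78, -0.82, -0.52 and -0.56 on the control arrays. Brain ACTH, brain ACTH gratified and hypothalamus ACTH gratified arrays all lay above their controls, and hypothalamus ACTH arrays overlapped them. The hypothalamus difference was 0.39 ± 0.11 with ACTH gratified (adjusted p = 0.0267) and 0.23 ± 0.12 with ACTH (adjusted p = 0.207). For brain it was 0.30 ± 0.13 with ACTH gratified (adjusted p = 0.0891) and 0.61 ± 0.14 with ACTH (adjusted p = 0.00364). Rgs1 values were tied on 3 of 6 hypothalamus ACTH gratified arrays and 3 of 5 ACTH arrays, and on 2 of 5 brain ACTH gratified arrays and 3 of 4 ACTH arrays, against 0 of 4 controls in each tissue. The hypothalamus ACTH gratified call was lost without hypothalamus control replicates 1, 2 or 4 (adjusted p 0.0573 to 0.0829) and with the replicate number as a block. The brain ACTH gratified difference passed the threshold in a fit of only the groups compared (0.30, adjusted p = 0.035) and after quantile normalization (0.37, adjusted p = 0.0412). Rgs17 was also higher than control past the threshold in some settings. After quantile normalization its hypothalamus difference was 0.44 with ACTH gratified (adjusted p = 0.00395) and 0.45 with ACTH (adjusted p = 0.00645), and its brain difference 0.36 with ACTH gratified (adjusted p = 0.0351) and 0.42 with ACTH (adjusted p = 0.0233). In hypothalamus it passed with ACTH gratified without hypothalamus ACTH gratified replicate 4 (adjusted p = 0.0406) and with hypothalamus ACTH gratified replicates 4 and 6 both left out (0.31, adjusted p = 0.0237), and with ACTH with array quality weights (0.23, adjusted p = 0.0318).

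Rgs4, an abundant neuronal RGS protein, had 2.43, 2.13, 1.53, 2.14 and 1.99 on the ACTH gratified arrays and 2.48, 2.36, 1.92 and 1.78 on the ACTH arrays, against 2.53, 2.41, 2.45 and 2.56 on the control arrays in brain. Rgs5, a marker of pericytes, had 0.57, 0.56, 0.30, 0.18 and 0.49 on the ACTH gratified arrays and 0.69, 0.52, 0.40 and 0.53 on the ACTH arrays, against 0.84, 0.51, 0.70 and 0.69 on the control arrays there. Both genes overlapped between treated and control brains, with the lowest Rgs4 value on ACTH gratified replicate 3. On that array 7 genes of cortex and hippocampus averaged 0.595, against 1.19 to 1.31 on the other 4 ACTH gratified arrays; the part of that tissue in the Rgs4 result was not tested. The Rgs4 difference was -0.45 ± 0.17 with ACTH gratified (adjusted p = 0.047) and -0.35 ± 0.18 with ACTH (adjusted p = 0.133). The Rgs5 difference was -0.26 ± 0.08 with ACTH gratified (adjusted p = 0.0221) and -0.15 ± 0.09 with ACTH (adjusted p = 0.21). The Rgs4 call was lost without brain control replicates 1, 2, 3 or 4 or brain ACTH gratified replicates 2, 3, 4 or 5 (adjusted p 0.0584 to 0.127), with array medians set to 0 (-0.42, adjusted p = 0.066) and after quantile normalization (-0.30, adjusted p = 0.188). The Rgs5 call was lost without brain control replicates 1 or 3 or brain ACTH gratified replicates 3 or 4 (adjusted p 0.0517 to 0.0779), with array medians set to 0 (-0.24, adjusted p = 0.0562), after quantile normalization (-0.22, adjusted p = 0.0907) and in a fit of only the groups compared (-0.26, adjusted p = 0.0605). Of 11 genes on the mural and endothelial list, 8 were measured. In brain 2 of them rose and 3 fell with ACTH gratified, and 1 rose and 2 fell with ACTH. These are 62.5% and 37.5% of the 8, against 32.7% and 30% of all features, and their part in the Rgs5 result was not tested. The mean log2 ratio of the 8 ranged over -0.06 to 0.10 on brain ACTH gratified arrays and 0.00017 to 0.05 on brain ACTH arrays, against -0.04 to 0.02 on brain controls, so the groups overlapped.

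In hypothalamus neither Rgs4 nor Rgs5 passed the threshold. Rgs4 had 1.88 to 2.38 (median 2.18) on the ACTH gratified arrays and 2.29, 2.37, 2.12, 2.28 and 2.05 on the ACTH arrays, against 2.45, 2.17, 2.40 and 2.05 on the control arrays. Rgs5 had 0.22 to 0.76 (median 0.50) on the ACTH gratified arrays and 0.61, 0.58, 0.51, 0.70 and 0.70 on the ACTH arrays, against 0.61, 0.90, 0.56 and 0.78 on the control arrays. The treated groups overlapped the controls for both genes. The Rgs4 difference was -0.10 ± 0.09 with ACTH gratified and -0.05 ± 0.10 with ACTH, and the Rgs5 difference -0.21 ± 0.11 with ACTH gratified and -0.09 ± 0.11 with ACTH.

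Rgs2 did not pass the threshold with ACTH in either tissue. Its hypothalamus values were 0.19 to 1.05 (median 0.38) on the ACTH gratified arrays and 0.39, 0.70, 0.58, 0.63 and 0.61 on the ACTH arrays, against 0.86, 0.51, 0.61 and 0.52 on the control arrays. Its brain values were 0.32, 0.16, -0.01, 0.38 and 0.38 on the ACTH gratified arrays and 0.34, 0.21, 0.36 and 0.15 on the ACTH arrays, against 0.44, 0.15, 0.50 and 0.69 on the control arrays. The groups overlapped throughout, and replicate 4 stood at 1.05 above the other hypothalamus ACTH gratified arrays. Set against control, hypothalamus differed by -0.16 ± 0.13 with ACTH gratified (adjusted p = 0.435) and -0.04 ± 0.13 with ACTH (adjusted p = 0.864), and the first of these was -0.28 without replicate 4, past the threshold. In brain it was -0.20 ± 0.13 with ACTH gratified (adjusted p = 0.229) and -0.18 ± 0.13 with ACTH (adjusted p = 0.315).

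Features of the same gene did not always move together. Rgs14, an RGS protein of hippocampal area CA2, has 3 features. In brain its first feature had 1.01, 1.01, 0.94 and 0.82 with ACTH, against 1.20, 1.43, 1.48 and 1.57 in controls. Its second feature had -0.36, -0.03, -0.32 and -0.16 with ACTH, against -0.72, -0.52, -0.73 and -0.87 in controls. Neither feature overlapped between the groups, and they lay in opposite directions. The difference was -0.47 ± 0.28 for the first feature (adjusted p = 0.203), 0.49 ± 0.19 for the second (adjusted p = 0.0548) and -0.19 ± 0.11 for the third (adjusted p = 0.187). The first passed the threshold in a fit of only the groups compared (-0.47, adjusted p = 0.00943), and the second without brain control replicate 2 (adjusted p = 0.0478), with array quality weights (0.55, adjusted p = 0.0132) and in a fit of only the groups compared (0.49, adjusted p = 0.0103). In brain with ACTH gratified the second passed with array quality weights (0.49, adjusted p = 0.00826) and in a fit of only the groups compared (0.43, adjusted p = 0.00227).

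**Figure D4:**
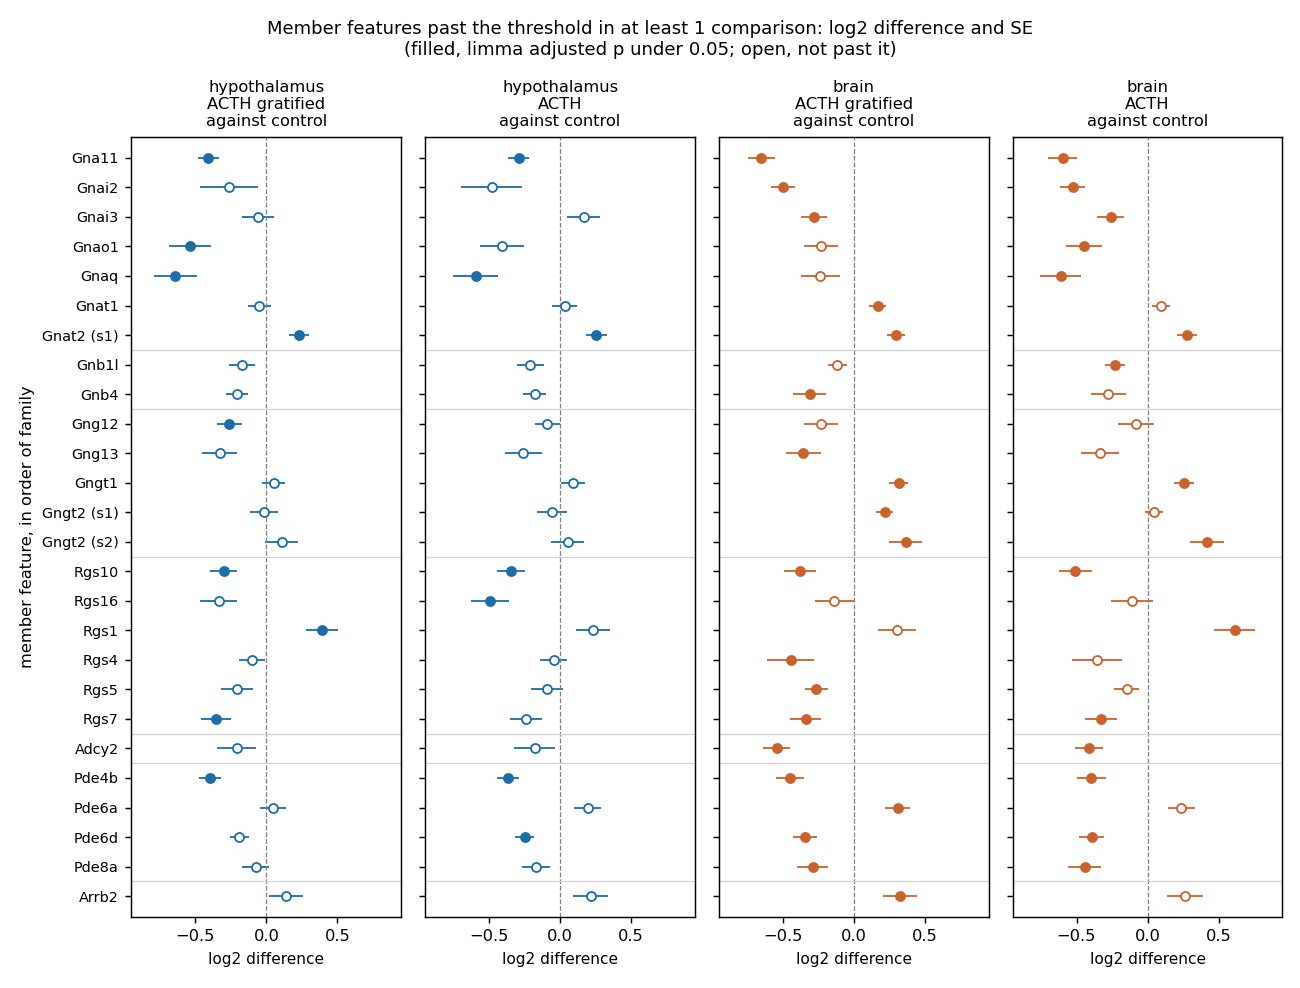
Log2 difference from control with its SE (x axis) of the 26 features past the threshold in at least 1 of the 4 ACTH comparisons (y axis, by family), with 1 panel per comparison; filled points are past the limma threshold. Gna11, Rgs10 and Pde4b are filled left of 0 in all 4 panels, and the filled points right of 0 are mostly rod and cone genes in the brain panels.

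Of the 5 adenylyl cyclases, Adcy2 fell in brain and none passed the threshold in hypothalamus in the unweighted fit of all arrays as deposited. Adcy2 is a cyclase that G beta-gamma stimulates. Across brain arrays it had 1.41, 1.36, 1.31, 1.52 and 1.53 on the ACTH gratified arrays and 1.59, 1.53, 1.54 and 1.59 on the ACTH arrays, against 1.91, 1.98, 1.99 and 2.00 on the control arrays. In hypothalamus it had 1.23 to 1.60 (median 1.28) on the ACTH gratified arrays and 1.19, 1.19, 1.48, 1.45 and 1.58 on the ACTH arrays, against 1.77, 1.80, 1.82 and 0.83 on the control arrays. The brain groups were well apart, with every treated array below every control. In hypothalamus the groups overlapped through control replicate 4, which at 0.83 lay below every treated array. The brain difference was -0.54 ± 0.09 with ACTH gratified (adjusted p = 0.000349) and -0.41 ± 0.10 with ACTH (adjusted p = 0.00495), and the ACTH gratified one amounts to 1.46-fold. In hypothalamus it was -0.21 ± 0.14 with ACTH gratified (adjusted p = 0.344) and -0.18 ± 0.14 with ACTH (adjusted p = 0.441). Without control replicate 4 the hypothalamus difference was -0.45 with ACTH gratified (adjusted p = 0.00263) and -0.42 with ACTH (adjusted p = 0.00742), past the threshold in both. With array quality weights it was -0.33 with ACTH gratified (adjusted p = 0.0406) and -0.31 with ACTH (adjusted p = 0.0432). The brain ACTH call was lost after quantile normalization (-0.13, adjusted p = 0.338). Adcy7, a cyclase known from blood cells and platelets, was among the most variable members, with brain values of -0.06, 0.07, -0.50, 0.34 and 0.42 on the ACTH gratified arrays and -0.64, -0.78, 0.40 and 0.38 on the ACTH arrays, against -0.99, 0.44, -0.93 and -0.95 on the control arrays. Control replicate 2 stood with the high treated arrays, and the difference of 0.66 ± 0.34 with ACTH gratified (adjusted p = 0.133) and 0.45 ± 0.35 with ACTH (adjusted p = 0.349) did not pass the threshold in the unweighted fit of all arrays as deposited. The ACTH gratified difference was 1.01 without control replicate 2 (adjusted p = 0.0205) and 0.88 with array quality weights (adjusted p = 0.0383), past it in both. Of the other 3 cyclases, Adcy6 passed in brain with ACTH gratified without brain control replicate 2 (adjusted p = 0.0356) and with array quality weights (0.41, adjusted p = 0.0388) and Adcy8 with ACTH in a fit of only the groups compared (-0.33, adjusted p = 0.0413), neither of them in the unweighted shared fit; the 5 together ranged over -0.54 to 0.66 in brain with ACTH gratified.

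Of 15 phosphodiesterases, 1 fell in hypothalamus with ACTH gratified and 2 with ACTH, 1 rose and 3 fell in brain with ACTH gratified, and 3 fell in brain with ACTH. Pde4b fell in all 4 comparisons with control. Its product degrades cAMP and is a target of rolipram-type inhibitors. Its hypothalamus values were 0.29 to 0.54 (median 0.46) on the ACTH gratified arrays and 0.56, 0.50, 0.24, 0.46 and 0.58 on the ACTH arrays, against 0.93, 0.76, 0.93 and 0.72 on the control arrays. For brain the values were 0.47, 0.34, 0.14, 0.46 and 0.55 on the ACTH gratified arrays and 0.42, 0.42, 0.52 and 0.41 on the ACTH arrays, against 0.69, 0.86, 0.98 and 0.83 on the control arrays. No treated group overlapped its controls. Shares of all features without overlap in these comparisons are given above. The hypothalamus difference was -0.40 ± 0.07 with ACTH gratified (adjusted p = 0.00123) and -0.37 ± 0.08 with ACTH (adjusted p = 0.00504). For brain it was -0.45 ± 0.10 with ACTH gratified (adjusted p = 0.00182) and -0.40 ± 0.10 with ACTH (adjusted p = 0.00696). The call held under every alternative run in each of the 4 comparisons, with hypothalamus ACTH gratified replicates 4 and 6 left out among them.

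Pde8a, a cAMP phosphodiesterase of high affinity, had -0.33, -0.04, -0.09, -0.17 and -0.02 on the ACTH gratified arrays and -0.21, -0.35, -0.07 and -0.49 on the ACTH arrays, against 0.04, -0.02, 0.17 and 0.45 on the control arrays in brain. ACTH arrays lay below all controls, and ACTH gratified arrays overlapped them. The difference was -0.29 ± 0.11 with ACTH gratified (adjusted p = 0.0479) and -0.44 ± 0.12 with ACTH (adjusted p = 0.00804). The ACTH gratified call was lost without brain control replicates 3 or 4 or brain ACTH gratified replicates 1, 2, 3 or 4 (adjusted p 0.0536 to 0.197), with array medians set to 0 (-0.27, adjusted p = 0.0744), in a fit of only the groups compared (-0.29, adjusted p = 0.0505) and with mostly tied features left out (-0.29, adjusted p = 0.0506). Pde6d had -0.68, -0.57, -0.46, -0.57 and -0.60 on the ACTH gratified arrays and -0.56, -0.67, -0.61 and -0.67 on the ACTH arrays, against -0.31, -0.41, -0.03 and -0.19 on the control arrays in brain. Its treated and control brains did not overlap, and the difference was -0.34 ± 0.08 with ACTH gratified (adjusted p = 0.00456) and -0.39 ± 0.09 with ACTH (adjusted p = 0.00318). In hypothalamus the Pde6d difference was -0.19 ± 0.07 with ACTH gratified (adjusted p = 0.057) and -0.25 ± 0.07 with ACTH (adjusted p = 0.0221). The hypothalamus ACTH call was lost without hypothalamus control replicates 1, 2 or 3 or hypothalamus ACTH replicate 3 (adjusted p 0.0541 to 0.0887), and the ACTH gratified difference passed the threshold without hypothalamus control replicate 4 or hypothalamus ACTH gratified replicate 4 (adjusted p 0.00987 to 0.0384), with array medians set to 0 (-0.23, adjusted p = 0.0256), after quantile normalization (-0.21, adjusted p = 0.04), with array quality weights (-0.25, adjusted p = 0.00228) and with hypothalamus ACTH gratified replicates 4 and 6 both left out (-0.22, adjusted p = 0.0191).

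Pde1b and Pde10a, phosphodiesterases rich in striatal neurons, did not pass the threshold in either tissue in the unweighted fit of all arrays as deposited. Pde1b had 1.35 to 1.96 (median 1.54) on the ACTH gratified arrays and 1.87, 1.78, 1.91, 1.92 and 2.03 on the ACTH arrays, against 2.09, 1.71, 1.80 and 1.91 on the control arrays in hypothalamus. In brain it had 1.79, 1.52, 1.16, 1.88 and 1.62 on the ACTH gratified arrays and 1.71, 1.61, 1.51 and 1.49 on the ACTH arrays, against 1.70, 1.71, 2.01 and 2.04 on the control arrays. The groups overlapped in both tissues. Pde10a had 0.15 to 0.92 (median 0.53) on the ACTH gratified arrays and 0.89, 0.91, 0.59, 0.90 and 1.12 on the ACTH arrays, against 1.08, 0.40, 0.72 and 1.05 on the control arrays in hypothalamus. Its brain values were 0.72, 0.72, 0.09, 0.87 and 0.57 on the ACTH gratified arrays and 0.61, 0.62, 0.22 and 0.48 on the ACTH arrays, against 0.54, 0.26, 0.89 and 0.61 on the control arrays. These groups overlapped as well. In hypothalamus the Pde1b difference was -0.27 ± 0.10 with ACTH gratified (adjusted p = 0.0917) and 0.03 ± 0.11 with ACTH (adjusted p = 0.896), and in brain -0.27 ± 0.17 with ACTH gratified (adjusted p = 0.23) and -0.28 ± 0.18 with ACTH (adjusted p = 0.237). The first of these was -0.34 without ACTH gratified replicate 1 (adjusted p = 0.0252) and -0.32 without replicate 2 (adjusted p = 0.0458), past the threshold in both. For Pde10a the hypothalamus difference was -0.26 ± 0.16 with ACTH gratified (adjusted p = 0.294) and 0.07 ± 0.16 with ACTH (adjusted p = 0.815), and the brain difference 0.02 ± 0.18 with ACTH gratified (adjusted p = 0.957) and -0.09 ± 0.19 with ACTH (adjusted p = 0.738).

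Against control, 1 of the 5 arrestin and receptor kinase features passed the threshold with all arrays, in brain with ACTH gratified. The beta-arrestins Arrb1 and Arrb2 uncouple receptors from G proteins. In brain Arrb2 had 0.59, 0.64, 0.56, 0.46 and 0.60 on the ACTH gratified arrays and 0.60, 0.54, 0.43 and 0.46 on the ACTH arrays, against 0.67, 0.36, 0.04 and -0.09 on the control arrays. Arrb1 had 0.46, 0.61, 0.42, 0.48 and 0.50 on the ACTH gratified arrays and 0.35, 0.41, 0.45 and 0.47 on the ACTH arrays, against 0.88, 0.51, 0.27 and -0.07 on the control arrays. The treated groups overlapped the controls for both genes, and the controls spread more widely than the treated arrays. The Arrb2 difference was 0.32 ± 0.12 with ACTH gratified (adjusted p = 0.0438) and 0.26 ± 0.13 with ACTH (adjusted p = 0.12). Its ACTH gratified values were tied on 4 of 5 arrays, against 2 of 4 control arrays. The Arrb2 call was lost without brain control replicates 3 or 4 or brain ACTH gratified replicates 1, 2, 3 or 5 (adjusted p 0.0619 to 0.189) and in a fit of only the groups compared (0.32, adjusted p = 0.0826). The ACTH difference passed the threshold without brain control replicate 1 (adjusted p = 0.0113), with array quality weights (0.36, adjusted p = 0.0433) and after quantile normalization (0.34, adjusted p = 0.0439). The Arrb1 difference in brain was 0.10 ± 0.13 with ACTH gratified and 0.02 ± 0.13 with ACTH.

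In hypothalamus Arrb1 had -0.13 to 0.44 (median 0.39) on the ACTH gratified arrays and 0.31, 0.50, 0.38, 0.30 and 0.37 on the ACTH arrays, against 0.29, 0.16, 0.16 and -0.02 on the control arrays. Arrb2 had 0.25 to 0.65 (median 0.55) on the ACTH gratified arrays and 0.56, 0.60, 0.62, 0.58 and 0.54 on the ACTH arrays, against 0.09, 0.60, 0.18 and 0.58 on the control arrays. Arrb1 lay higher on every ACTH array than on any control, and replicate 4, at -0.13, was the only ACTH gratified array below the controls. The Arrb1 difference was 0.15 ± 0.09 with ACTH gratified (adjusted p = 0.304) and 0.22 ± 0.10 with ACTH (adjusted p = 0.151). It was 0.24 with ACTH gratified without replicate 4, past the threshold, and the ACTH difference of 0.22 was past it too once that array left the shared fit. The Arrb2 difference was 0.14 ± 0.12 with ACTH gratified (adjusted p = 0.484) and 0.21 ± 0.12 with ACTH (adjusted p = 0.262). The receptor kinases Grk4 (2 features) and Grk5 differed little: the 4 comparisons gave -0.12 to 0.12, and their groups overlapped throughout.

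The members that rose were mostly subunits of phototransduction, the rod and cone cascade that ends in cGMP breakdown. These are 11 features of 8 genes (Gnat1, Gnat2, Gnb3, Gngt1, Gngt2, Pde6a, Pde6g and Pde6h), grouped by role after their values were seen. Pde6d, a carrier of prenylated proteins, was not counted among them. It fell in brain with ACTH gratified (-0.34) and ACTH (-0.39) and in hypothalamus with ACTH (-0.25). In brain 6 of the 11 rose with ACTH gratified and 3 with ACTH, none of the 11 fell, and 11 of 11 lay above control in each. Of all 64 features, 29 and 25 lay above control there. The medians of the 11 were 0.22 and 0.17, beside -0.04 and -0.04 for all features. The other 53 features had 1 rise and 13 falls with ACTH gratified, median -0.14, and 1 rise and 12 falls with ACTH, median -0.16. In hypothalamus 1 of the 11 rose with ACTH gratified and 1 with ACTH, and 7 of 11 lay above control in each. Of all features, 11.5% and 9.29% rose in brain with ACTH gratified and ACTH, and 4.67% and 4.49% in hypothalamus. Tied values made up 69.1% of the 11 features' values on high-number arrays, against 32.2% on the other arrays. For the other 53 features the shares were 20.3% on high-number arrays and 6.53% on the other arrays.

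Gnat2, the cone transducin alpha subunit, was past the threshold in all 4 comparisons through its first feature, which was tied on 0 of the 44 arrays. That feature had 0.23, 0.26, 0.11, 0.15 and 0.24 on the ACTH gratified arrays and 0.31, 0.10, 0.04 and 0.27 on the ACTH arrays, against -0.18, -0.03, -0.08 and -0.11 on the control arrays in brain. In hypothalamus it had 0.02 to 0.32 (median 0.20) on the ACTH gratified arrays and 0.30, 0.30, 0.18, 0.13 and 0.12 on the ACTH arrays, against 0.03, -0.03, -0.09 and -0.10 on the control arrays. Only hypothalamus ACTH gratified overlapped its controls. The brain difference was 0.30 ± 0.07 with ACTH gratified (adjusted p = 0.00239) and 0.28 ± 0.07 with ACTH (adjusted p = 0.00587). In hypothalamus it was 0.23 ± 0.07 with ACTH gratified (adjusted p = 0.0365) and 0.25 ± 0.07 with ACTH (adjusted p = 0.0286). The second Gnat2 feature, tied on 5 of 5 brain ACTH gratified and 4 of 4 brain ACTH arrays against 1 of 4 brain controls, had a brain difference of 0.24 ± 0.11 with ACTH gratified (adjusted p = 0.0842) and 0.26 ± 0.11 with ACTH (adjusted p = 0.0799). The first feature's hypothalamus calls were lost with ACTH gratified without hypothalamus control replicates 2, 3 or 4 or hypothalamus ACTH gratified replicates 1, 3, 5 or 6 (adjusted p 0.0573 to 0.0974), with array medians set to 0 (0.19, adjusted p = 0.119), after quantile normalization (0.15, adjusted p = 0.205) and in a fit of only the groups compared (0.23, adjusted p = 0.12). With ACTH they were lost without hypothalamus control replicates 2, 3 or 4 or hypothalamus ACTH replicates 1 or 2 (adjusted p 0.0606 to 0.0838), with array medians set to 0 (0.25, adjusted p = 0.0631) and after quantile normalization (0.18, adjusted p = 0.133). Both hypothalamus calls were also lost with the replicate number as a block.

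Most of the other rises are of features tied on many treated arrays. Gngt1, the rod gamma subunit, had 0.44, 0.45, 0.32, 0.41 and 0.26 on the ACTH gratified arrays and 0.38, 0.45, 0.22 and 0.22 on the ACTH arrays, against 0.05, -0.00033, 0.12 and 0.08 on the control arrays in brain. The treated arrays lay above all controls, and 3 of 5 ACTH gratified and 3 of 4 ACTH values were tied, against 0 of 4 controls. Its difference was 0.31 ± 0.07 with ACTH gratified (adjusted p = 0.00142) and 0.25 ± 0.07 with ACTH (adjusted p = 0.0096), and the ACTH call was lost after quantile normalization (0.17, adjusted p = 0.0913). Gngt2, the cone gamma subunit, rose with ACTH gratified by 0.22 and 0.36 through its first and second features and with ACTH by 0.42 through the second. The second feature's call was lost with ACTH gratified without brain control replicate 4 (adjusted p = 0.1) and after quantile normalization (0.31, adjusted p = 0.0572), and with ACTH without brain control replicate 4 (adjusted p = 0.0609). Pde6a, a catalytic subunit of the rod phosphodiesterase, rose by 0.31 and Gnat1, the rod transducin alpha subunit, by 0.17 with ACTH gratified. The Pde6a call was lost without brain control replicate 3 (adjusted p = 0.0594). The Gnat1 call was lost without brain control replicates 1, 3 or 4 or brain ACTH gratified replicates 1, 2 or 4 (adjusted p 0.0548 to 0.0867) and after quantile normalization (0.10, adjusted p = 0.204). It was also lost with the replicate number as a block. In all, 6 of the 7 features that rose in brain with ACTH gratified and 3 of the 4 with ACTH were tied on more than 10 of the 20 high-number arrays. Of the features that fell in brain, 1 of 13 with ACTH gratified and 0 of 12 with ACTH were. On the photoreceptor and pineal list, 5 of 7 genes were measured, and Gnat1, itself one of the 64 features, rose in brain with ACTH gratified, while Crx, a transcription factor of photoreceptors and pineal cells, rose by 0.25 in hypothalamus with ACTH. The part of tied values in these rises was not tested.

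**Figure D5:**
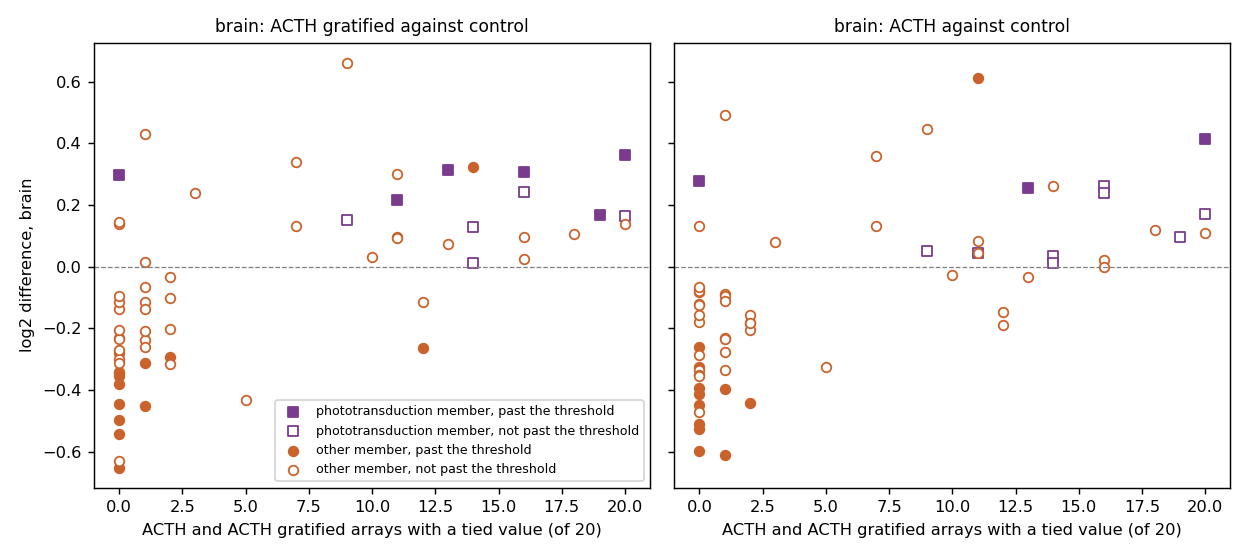
Log2 difference from control in brain (y axis) of each of the 64 features against the number of the 20 ACTH and ACTH gratified arrays on which its value was tied (x axis), for ACTH gratified (left) and ACTH (right); squares are phototransduction members, and filled points are past the limma threshold. Of the falls past the threshold, 1 of 13 (left) and 0 of 12 (right) lie beyond 10 tied arrays, against 6 of 7 and 3 of 4 of the rises; the exception among rises past the threshold is untied Gnat2 on the left (0.30) and on the right (0.28).

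Some ACTH calls were shared by the tissues, at shares near or above those of the whole table. With ACTH gratified, 5 genes (Gna11, Gnat2, Pde4b, Rgs10 and Rgs7) passed the threshold in both tissues and in the same direction, 55.6% of the 9 in hypothalamus and 25.0% of the 20 in brain; over all features such shared calls were 60.4% of those in hypothalamus and 23.3% of those in brain. With ACTH, 6 genes (Gna11, Gnaq, Gnat2, Pde4b, Pde6d and Rgs10) did so, 85.7% of the 7 in hypothalamus and 37.5% of the 16 in brain, beside 61.1% and 21.4% over all features, and nothing particular to the members is read from counts this small. No feature of the 64 passed the test of the ACTH difference between tissues, where 0% of all features did; 6 had an unadjusted p under 0.05, and the smallest adjusted p was 0.591. The calls in hypothalamus depend on the array that stood apart. Without ACTH gratified replicate 4, 18 of the 64 features passed the threshold there with ACTH gratified, among them the 9 past it with all arrays, Gnai2 and Rgs16; with replicates 4 and 6 both left out, 17 did. With ACTH, 11 passed once replicate 4 left the shared fit. The number of calls in hypothalamus with ACTH was 3 without control replicate 1 and 3 without control replicate 3.

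In the unweighted fit of all arrays as deposited, gratification and furosemide gave no call among the 64 features in limma, in either tissue. Calls under other settings are given below. ACTH gratified against ACTH had 0 features past the threshold in hypothalamus, against 0.0105% of all features, and 0 in brain, against 0.0628%; 7 and 4 had an unadjusted p under 0.05. Furosemide gratified against furosemide had 0 in hypothalamus, against 0.0105%, and 0 in brain, against 0%; 3 and 0 had an unadjusted p under 0.05. Furosemide gratified against control had 0 in hypothalamus, against 0%, and 0 in brain, against 0%; 4 and 10 had an unadjusted p under 0.05. Furosemide against control had 0 in hypothalamus, against 0.0209%, and 0 in brain, against 0.0942%; 8 and 7 had an unadjusted p under 0.05. The test of the furosemide difference between tissues gave 0 features, against 0.0628%, with 10 at an unadjusted p under 0.05. The 95% intervals for furosemide against control reached a median of 0.22 either side of the difference in hypothalamus. Changes of that size could not be told from 0, and larger ones could be missed too, since these intervals are not adjusted over all features. The largest difference among the 64 features there was 0.52, and the smallest limma adjusted p was 0.607.

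Gna15 had the largest difference of the 64 features in any furosemide comparison within a tissue. Its 4 hypothalamus furosemide gratified arrays, given above, stood against 0.02, 0.13, 0.05 and -0.16 with furosemide and 0.26, -0.09, 0.12 and -0.00063 in controls. The groups overlapped through replicate 2, at 0.02, while the other 3 arrays lay below all furosemide and control arrays. The difference was -0.70 ± 0.16 from control (adjusted p = 0.825) and -0.64 ± 0.16 from furosemide (adjusted p = 0.417). Replicates 1 and 2 are zero-padded and replicates 3 and 4 have 2-digit numbers, as have the controls. The difference from control passed the threshold without hypothalamus furosemide gratified replicate 2 (adjusted p = 0.00259), when the number series entered the fit (-1.10, adjusted p = 0.000117) and within the 2-digit series (-1.10, adjusted p = 0.0108). That from furosemide passed it without hypothalamus furosemide gratified replicate 2 (adjusted p = 0.00391), when the number series entered the fit (-1.03, adjusted p = 0.000234) and within the 2-digit series (-1.03, adjusted p = 0.00192).

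Other genes of the pathway, 53 on the list and 36 of them measured, passed the threshold with ACTH at shares near the background in hypothalamus and below it in brain. In hypothalamus 3 rose and 3 fell with ACTH gratified, and 3 rose and 1 fell with ACTH; in brain 3 rose and 3 fell with ACTH gratified, and 3 rose and 5 fell with ACTH. These are 16.7% and 11.1% of the 36 in hypothalamus with ACTH gratified and ACTH, against 12.6% and 10.5% of all features, and 16.7% and 22.2% in brain, against 32.7% and 30%. Prkaca, the catalytic subunit of protein kinase A, fell in all 4 comparisons, by 0.36 and 0.35 in hypothalamus with ACTH gratified and ACTH and by 0.30 and 0.38 in brain. Gpsm1, an activator of G-protein signalling, rose in all 4, by 0.37 and 0.46 in hypothalamus and 0.59 and 0.55 in brain. Creb1, the transcription factor that protein kinase A phosphorylates, rose by 0.67 in hypothalamus with ACTH gratified and by 0.71 and 0.71 in brain with ACTH gratified and ACTH. Rapgef3, the cAMP-activated exchange factor Epac1, fell by 0.58 and 0.51 in brain, and Ric8a, a chaperone of G alpha subunits, by 0.24 and 0.27. Hcn2, a cAMP-gated channel, fell by 0.54 in hypothalamus with ACTH gratified. With furosemide, furosemide gratified and between gratified and ungratified groups, 0 of the 36 passed the threshold; 0 to 4 in the hypothalamus comparisons and 2 to 7 in the brain comparisons had an unadjusted p under 0.05.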

How the data were processed

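The authors deposited 1 table of log2 ratios of tissue over reference RNA for 44 dual-colour arrays and 9554 features, with no missing value. The table does not name the log base, and base 2 is assumed from the range of -2.65 to 3.17. The submitters' processing notes name limma; for its version, the normalization and the genome build, the sources used here give no entry. The values are therefore taken as deposited, without new background correction or normalization, and precision is limited by the number of arrays. All 44 columns matched a sample. All arrays carry the tissue RNA in Cy5 and no dye was swapped, so dye bias and signal cannot be told apart within an array.

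Group means were fitted by lmFit and eBayes from limma (version 3.58.1, under R 4.3.3), with Benjamini-Hochberg adjustment over all 9554 features and a threshold of 0.05. The arrays of 1 tissue entered comparisons within it, and all 44 arrays entered the 5 tissue comparisons and the 2 tests of a difference between tissues, 19 comparisons in all. No label ties the hypothalamus of an animal to its brain. Same-numbered arrays were not paired: in no comparison did every pair correlate over 0.1 in their deviations from the group means. Between hypothalamus and brain with ACTH gratified, 4 of 5 pairs did (r 0.12 to 0.20). The exception was replicate 4 (r -0.07), whose hypothalamus array stood apart. In each of the other comparisons 0 to 2 pairs did. Whether same-numbered arrays share an animal was not tested. No 2 columns were identical, and the highest correlation between arrays was 0.979.

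Per-array values are given for up to 6 features with the largest differences past the threshold in each comparison, for features past it in at least 3 tissue comparisons, and for a list of well-known members; a few others were named after their values were seen. A value was called tied where another feature of that array had the same number. For the pathway and marker lists, a gene with several features was represented by the most variable one. The members and lists were chosen with earlier results of these data known. Alternatives were array medians set to 0, quantile normalization, array quality weights, a fit of only the groups compared, removal of features tied on over 50% of arrays, the replicate number as a block, the number series as a factor and leaving out each array. Fits within 1 number series and fits without the arrays that stood apart were chosen after seeing the data. The fits were tested on simulated data. Promoter windows came from RefSeq (GRCm38.p6).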

Additional observations from a re-analysis of the deposited data

Results flagged for a closer look

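For the 23 features with per-array values, each of the 10 groups was searched for 1 array far from the rest by Dixon's criterion, which chance meets in about 1 in 20 groups; 19 of 230 searches met it. The array labelled hypothalamus ACTH gratified replicate 4 accounts for 6 of them. It was highest for Gnai2 (0.84, against -0.82 to -0.52 on the other 5 arrays), Rgs1 (0.08, against -0.37 to -0.29) and Rgs2 (1.05, against 0.19 to 0.46). It was lowest for Arrb1 (-0.13, against 0.30 to 0.44), Gna15 (-0.19, against 0.19 to 0.38) and Rgs7 (1.07, against 1.47 to 1.71).

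Brain furosemide replicate 1 stood apart for 4 genes: Adcy2 (1.67, against 1.84 to 1.87), Pde1b (1.39, against 1.88 to 1.98), Rgs2 (-0.11, against 0.35 to 0.41) and Arrb2 (0.62, against 0.49 to 0.51). Among controls, hypothalamus replicate 4 had the lowest Adcy2 (0.83, against 1.77 to 1.82) and brain replicate 1 the highest Rgs16 (0.53, against -0.03 to 0.04). Rgs1 was highest on brain ACTH gratified replicate 1 (-0.10, against -0.50 to -0.40), on hypothalamus ACTH replicate 2 (0.05, against -0.61 to -0.47) and on brain furosemide replicate 4 (-0.20, against -0.73 to -0.66). Pde4b was highest on brain ACTH replicate 3 (0.52, against 0.41 to 0.42), Gna11 on hypothalamus furosemide replicate 4 (0.08, against -0.02 to -0.0046) and the first Gnat2 feature on hypothalamus furosemide gratified replicate 4 (0.08, against -0.14 to -0.12). Arrb2 was lowest on brain furosemide gratified replicate 3 (0.09, against 0.53 to 0.59).

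For some genes every treated hypothalamus array lay on one side of the mean of its comparison group and every treated brain array on the other side of the mean of its own; single arrays of the groups overlapped in at least 1 tissue for each of them. With furosemide against control, the hypothalamus and brain differences were 0.18 and -0.16 for Adcy2 (whose hypothalamus control mean includes replicate 4 at 0.83). They were 0.22 and -0.20 for Gna11, 0.14 and -0.08 for Rgs10, 0.21 and -0.19 for Rgs2 and -0.17 and 0.19 for Rgs6. In the unweighted fit of all arrays as deposited, none of the 64 features passed the test of the furosemide difference between tissues in limma. In that test 10 had an unadjusted p under 0.05. With furosemide gratified against control the hypothalamus and brain differences were 0.16 and -0.35 for Adcy2. With furosemide gratified against furosemide they were 0.10 and -0.18 for Arrb1 and 0.15 and -0.09 for Rgs6. With ACTH gratified against ACTH they were 0.16 and -0.31 for Rgs1. For these last 4 results the difference between the tissues was not tested.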

How the results depend on the processing

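Across the 77 gene results compared with their alternatives, 975 of 1217 values kept their direction and side of the threshold, 211 lost the call, 31 gained it and 0 reversed. Quantile normalization ended 22 calls among them. Some of the 77 had no call to lose, such as Gnaq and Gnao1 in brain with ACTH gratified. Counts of members past the threshold moved as follows, and the cause was not tested. For most of these settings no count over all features is given here, so nothing particular to the members is read. With array quality weights they were 16 for hypothalamus ACTH, 19 for hypothalamus ACTH gratified, 1 for furosemide against control in hypothalamus and 1 in brain, 3 for control tissues, 16 for furosemide tissues and 5 for the furosemide difference between tissues. In a fit of only the groups compared they were 4 for hypothalamus ACTH gratified, 8 for furosemide tissues and 1 for furosemide gratified tissues, and after quantile normalization 2 for furosemide tissues. With the number series in the fit, 0 were past it for furosemide tissues, and 1 (Gna15) was past it for hypothalamus furosemide gratified against control and 1 against furosemide. Within the 2-digit series these 2 counts were 1 and 1, furosemide gratified tissues had 1, and within the zero-padded series 0. With hypothalamus ACTH gratified replicate 4 out of the shared fit, or with replicates 4 and 6 out, hypothalamus ACTH had 11, control tissues 3 and furosemide gratified tissues 5; with both out hypothalamus ACTH gratified had 17.

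Leaving out 1 array at a time gave 3 to 9 for hypothalamus ACTH, 4 to 18 for hypothalamus ACTH gratified, 12 to 18 for brain ACTH and 10 to 21 for brain ACTH gratified. Hypothalamus ACTH had 3 without control replicate 1 or 3 and 4 without control replicate 2; hypothalamus ACTH gratified had 5 without control replicate 1, 4 without control replicate 3 and 18 without ACTH gratified replicate 4. Brain ACTH gratified had 10 without control replicate 3 or 4 and 13 without ACTH gratified replicate 2. Hypothalamus furosemide gratified had 0 to 1 against control and 0 to 1 against furosemide (1 without furosemide gratified replicate 2), and brain furosemide gratified against control 0 to 1 (1 without control replicate 1 or furosemide gratified replicate 3). The other treatment comparisons and both tests between tissues stayed at 0 to 0. Tissue counts were 1 to 3 with ACTH gratified (3 without hypothalamus replicate 6, 2 without brain replicate 3) and 1 to 2 with ACTH (1 without hypothalamus replicate 1, 3 or 4 or brain replicate 2, 3 or 4). They were 1 to 4 with furosemide gratified (1 without hypothalamus replicate 4) and 2 to 5 with furosemide (2 without hypothalamus replicate 3 or brain replicate 1, 3 without hypothalamus replicate 1 or 2 or brain replicate 3 or 4). In controls they were 1 to 3 (3 without hypothalamus replicate 1, 2 without hypothalamus replicate 3 or brain replicate 1 or 3). Over all features the tissue counts were 22 to 168 with ACTH gratified and 69 to 170 with ACTH. With furosemide gratified they were 75 to 291, with furosemide 126 to 200 and in controls 169 to 341.

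With the replicate number as a block, hypothalamus ACTH gratified had 5 and ACTH gratified tissues 3, the unpaired hypothalamus replicate 6 carrying no weight in the last. The block ended 8 calls among the 77 gene results, those of Rgs1, Rgs10, Gng12, Gnat2 and Gnat1 given above among them. The number series could not be a factor where ACTH is set against control. Signal over background is not given in the table, so the depth behind a ratio is unknown.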

Other observations

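Outside the G-protein genes, Glul, Opalin and Fabp7, picked from the glial lists after their values were seen, fell with ACTH gratified and ACTH in both tissues. Glul, the glutamine synthetase of astrocytes, fell in hypothalamus by 1.75 with ACTH gratified (adjusted p = 3.52e-10) and 1.88 with ACTH (adjusted p = 1.73e-10), and in brain by 1.5 with ACTH gratified (adjusted p = 0.000172) and 1.69 with ACTH (adjusted p = 0.000184; limma throughout). Opalin, a myelin protein of oligodendrocytes, fell in hypothalamus by 1.32 with ACTH gratified (adjusted p = 1.35e-05) and 1.20 with ACTH (adjusted p = 9.68e-05). In brain Opalin fell by 1.20 with ACTH gratified (adjusted p = 6.83e-08) and 1.37 with ACTH (adjusted p = 1.48e-08). Fabp7, a fatty-acid-binding protein of astrocytes and progenitors, fell by 0.82 and 0.91 in hypothalamus and by 0.84 and 1.08 in brain with ACTH gratified and ACTH.

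By list the counts were mixed. With all arrays, the astrocyte and oligodendrocyte shares in brain, 28.6% each, lay near or below those of all features past the threshold. The latter were 32.7% with ACTH gratified and 30% with ACTH, and in hypothalamus 12.6% and 10.5%. Of the lists, 3 of 7 measured astrocyte genes fell in hypothalamus with ACTH gratified and 2 with ACTH, and 2 fell in brain with each. Of 7 oligodendrocyte genes, 3 fell in hypothalamus with each treatment, 1 rose (Cldn11, by 0.76) and 1 fell in brain with ACTH gratified, and 2 fell in brain with ACTH. Of 9 hypothalamic markers, 4 fell in hypothalamus with ACTH gratified (Pmch, Nkx2-1, Pomc and Trh, by 0.78, 0.32, 0.43 and 0.67) and 0 passed the threshold there with ACTH in limma, 2 having an unadjusted p under 0.05. Hypothalamus ACTH gratified replicate 6 averaged 0.587 on these markers, against 1.40 to 1.99 on the other 5 arrays of its group. Without it, a choice made after seeing the data as is that of the brain array below, 3 of the 9 fell: Pmch by 0.50 (adjusted p = 0.0073), Trh by 0.56 (adjusted p = 0.00687) and Avp by 0.42 (adjusted p = 0.0209); Nkx2-1 and Pomc no longer passed (adjusted p = 0.104 and 0.0808). The median of the 9 differences was -0.60 with all arrays and -0.32 without replicate 6. Of 7 genes of cortex and hippocampus, Mef2c and Egr1 fell in brain, Mef2c by 1.23 with ACTH gratified and 0.82 with ACTH and Egr1 by 0.76 and 0.64. Without brain ACTH gratified replicate 3, which averaged 0.595 on the 7 genes against 1.19 to 1.31 on the other 4 arrays, they fell by 0.94 and 0.65 with ACTH gratified (adjusted p = 0.0025 and 0.00285). Of 9 striatal genes, Tac1 and Gnal fell in brain with ACTH, by 0.75 and 0.43. These comparisons share the number series and the control arrays of the comparisons above.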
